A study of Homo sapiens with 2 samples.

Results

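The human hairpins hsa-mir-193a, hsa-mir-193b, hsa-mir-365a and hsa-mir-365b form a pair of paralogous clusters, with mir-193b and mir-365a on chromosome 16 and mir-193a and mir-365b on chromosome 17. They were chosen by precursor name, which gave 4 of the 1087 annotated hairpins in the raw count table and 8 rows, a 5p and a 3p strand for each hairpin. All 8 rows held a count in both libraries and reached 10 counts in at least 1 of them. Small RNAs of 15 to 35 nt were sequenced from cells enriched for breast cancer stem cells by flow sorting on CD24 and CD44. The triple-negative line MDA-MB-468 is given in the labels as ER-, PR- and HER2- and was grown in DMEM; BT474 is given as ER+ and was grown in RPMI-1640. Both media held fetal bovine serum and antibiotics, and both libraries were made from total RNA. Each line gave 1 library, so the differences have no replicate check, and each interval is a 95% interval for counting error alone. Each line had its own medium, so line and medium cannot be told apart. Both libraries came from sorted cells and unsorted cells were not analysed here, so what the sort changed in each line cannot be seen.

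A miRNA hairpin is cut by Dicer into a duplex, of which one strand, the guide, is usually kept in an Argonaute protein while the other, the passenger, is degraded. Bases 2 to 8 of the guide, its seed, pair with target transcripts. miR-193b-3p has been described as a repressor of the oestrogen receptor transcript ESR1 and of the urokinase transcript PLAU in breast cancer cells. miR-193a-3p has been described as a repressor of the survival gene MCL1, and miR-193a-5p as a repressor of the p53 relative TP73. miR-365-3p has been described as a repressor of cyclin D1, and in the mouse the miR-193b and miR-365 cluster is known from work on brown fat.

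The hairpins are shown first because the position of a strand within its hairpin, and the few bases that separate paralogs, decide what the counts can tell apart. Capitals mark the mature 5p strand, which comes first, and the mature 3p strand (RefSeq, GRCh38.p14, all on the + strand).
mir-193b, chr16:14303967-14304049: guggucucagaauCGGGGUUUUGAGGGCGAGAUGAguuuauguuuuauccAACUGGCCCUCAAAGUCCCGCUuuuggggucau
mir-365a, chr16:14309285-14309371: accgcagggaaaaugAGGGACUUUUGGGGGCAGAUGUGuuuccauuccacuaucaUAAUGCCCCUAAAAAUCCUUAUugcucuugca
mir-193a, chr17:31559996-31560083: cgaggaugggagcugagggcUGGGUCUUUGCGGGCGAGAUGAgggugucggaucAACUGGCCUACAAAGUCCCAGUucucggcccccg
mir-365b, chr17:31575411-31575521: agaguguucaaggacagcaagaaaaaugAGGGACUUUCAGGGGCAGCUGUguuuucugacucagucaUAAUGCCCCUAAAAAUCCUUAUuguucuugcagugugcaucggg

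GENCODE 29 gives all 4 hairpins the same positions. MIR193B and MIR365A lie in introns of the long non-coding RNA MIR193BHG, with 5235 bases between them. MIR365B overlaps an exon of the long non-coding RNA AC003101.1, and MIR193A overlaps no annotated transcript on its strand, with 15327 bases between the hairpins of the chromosome 17 pair.

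The mature strands fall into 5 seeds, which no other mature miRNA name in the RefSeq table carries. Capitals mark the seed.
miR-193a-3p: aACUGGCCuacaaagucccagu
miR-193b-3p: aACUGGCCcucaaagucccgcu
miR-193a-5p: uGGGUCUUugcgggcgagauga
miR-193b-5p: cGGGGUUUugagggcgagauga
miR-365a-3p: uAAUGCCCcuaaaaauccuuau
miR-365b-3p: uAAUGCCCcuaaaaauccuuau
miR-365a-5p: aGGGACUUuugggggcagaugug
miR-365b-5p: aGGGACUUucaggggcagcugu

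Counted from 1 at the 5′ end, miR-193a-3p and miR-193b-3p share the seed and differ at 4 of 22 bases (U9C, A10U, A20G and G21C, miR-193a first). The 5p strands of mir-193a and mir-193b also differ at 4 of 22 bases (U1C, U5G, C6U and C11A), and U5G and C6U give them different seeds. miR-365a-5p and miR-365b-5p keep 1 seed and differ at 3 of the 22 bases compared (U10C, G11A and A19C, miR-365a first). miR-365a-3p and miR-365b-3p do not differ at any base. The hairpins of mir-365a and mir-365b share the run ucaUAAUGCCCCUAAAAAUCCUUAUug of 27 bases, in which capitals mark the mature 3p strand. A tag must reach past 3 bases before or 2 bases after the mature strand to show which hairpin it came from.

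The tags listed under miR-365a-3p and miR-365b-3p were therefore almost the same. The MDA-MB-468 library listed 2251 counts under miR-365a-3p and 2253 under miR-365b-3p, a difference of 2 counts or 0.0888% of the larger value. The BT474 library listed 2207 under each, a difference of 0. The 3p rows thus hold 1 signal that cannot be given to either chromosome, and it is described once below as miR-365-3p, with the miR-365b-3p row where a number differs. The 5p strands, which differ in sequence, carry the only separate signal of mir-365a and mir-365b.

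The miR-193 and miR-365 strands lay mostly lower in MDA-MB-468 than in BT474, with miR-193a-3p as the exception. Levels are counts-per-million (CPM) of all annotated miRNA counts, 11448022 in MDA-MB-468, against 5133057 in BT474. A ratio is MDA-MB-468 over BT474. Of the 8 rows, 4 were at least 2-fold lower in MDA-MB-468 (miR-193b-5p, miR-365a-5p and both rows of miR-365-3p, which share their tags), 1 was at least 2-fold higher (miR-193a-3p) and 3 lay between. Among the 690 annotated miRNAs that reached 10 counts in either library, 28.6% were at least 2-fold lower in MDA-MB-468 and 35.4% at least 2-fold higher, with a median log2 ratio of 0.30. The minimum was reached by 603 miRNAs in the deeper MDA-MB-468 library, against 506 in BT474. miR-193a-3p had 79 counts in MDA-MB-468, against 4 in BT474, and reached the minimum through MDA-MB-468 alone. Its call is therefore not read against the 35.4%. For the 554 of the 690 listed in both libraries, as all 8 rows were, the median was 0.12. Counting miR-365-3p once leaves 3 of 7 separate signals past 2-fold lower, too few to set apart from the 28.6%.

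miR-365-3p, the main strand of its hairpins, was the most abundant member in both libraries. It had 2251 counts (197 CPM) in MDA-MB-468, against 2207 counts (430 CPM) in BT474, giving a log2 ratio of -1.13 (interval -1.21 to -1.04), or 2.19-fold lower in MDA-MB-468. With the size factors of DESeq2 over all miRNAs listed in both libraries, the log2 ratio was -0.97 and no longer reached 2-fold. Nearly equal raw counts thus stood for different levels, since the MDA-MB-468 library was 2.23 times as deep.

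miR-193b-3p, the strand described as targeting ESR1, came next. It had 1564 counts (137 CPM, 130 to 143.6) in MDA-MB-468, against 1042 counts (203 CPM, 191 to 216) in BT474. The intervals do not overlap, but the log2 ratio of -0.57 (-0.69 to -0.46) did not reach 2-fold. It ranked 147th by count in MDA-MB-468, against 116th in BT474.

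miR-193a-3p, which carries the same seed, was scarce in both libraries and stood in the other direction. It had 79 counts (6.90 CPM, 5.46 to 8.60) in MDA-MB-468, against 4 counts (0.779 CPM, 0.212 to 2.00) in BT474. The log2 ratio of 3.15 (1.73 to 5.06) is 8.86-fold (3.33 to 33.3), an uncertain size that rests on the 4 counts. In the authors' deposited normalized table it is listed at 6 for MDA-MB-468 and is blank for BT474. miR-193b-3p was far more abundant, and the sum of the strands that carry the seed ACUGGCC was 143.5 CPM in MDA-MB-468, against 204 CPM in BT474 (log2 ratio -0.51, -0.62 to -0.39).

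Among the 5p strands, miR-193b-5p was furthest apart. It had 95 counts (8.30 CPM) in MDA-MB-468, against 265 counts (51.6 CPM) in BT474, giving a log2 ratio of -2.64 (-2.99 to -2.29), or 6.22-fold lower in MDA-MB-468. miR-365a-5p, its neighbour on chromosome 16, had 338 counts (29.5 CPM) in MDA-MB-468, against 518 (101 CPM) in BT474, giving a log2 ratio of -1.77 (-1.98 to -1.57). Both 5p strands of the chromosome 16 pair were thus past 2-fold, and their intervals exclude it.

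The 5p strands of the chromosome 17 pair did not reach 2-fold. miR-193a-5p, the more abundant strand of its hairpin, had 501 counts (43.8 CPM) in MDA-MB-468, against 435 (84.7 CPM) in BT474, giving a log2 ratio of -0.95 (-1.14 to -0.76). It passed 2-fold under 3 of 10 alternatives, with values as low as -1.23. miR-365b-5p had 103 counts (8.997 CPM) in MDA-MB-468, against 73 (14.2 CPM) in BT474, giving a log2 ratio of -0.66 (-1.11 to -0.21). The order of levels, from high to low, was miR-365-3p, miR-193b-3p, miR-193a-5p, miR-365a-5p, miR-365b-5p, miR-193b-5p and miR-193a-3p in MDA-MB-468. The order of the last 3 is not relied on there. The intervals of neighbours overlap (7.34 to 10.9, 6.71 to 10.1 and 5.46 to 8.60 CPM), and these steps were not tested. In BT474 the order was miR-365-3p, miR-193b-3p, miR-365a-5p, miR-193a-5p, miR-193b-5p, miR-365b-5p and miR-193a-3p. The intervals of miR-365a-5p (92.4 to 110 CPM) and miR-193a-5p (77.0 to 93.1 CPM) overlap slightly there, which alone does not place that step within counting error. The intervals of the other neighbours do not overlap.

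**Figure D1:**
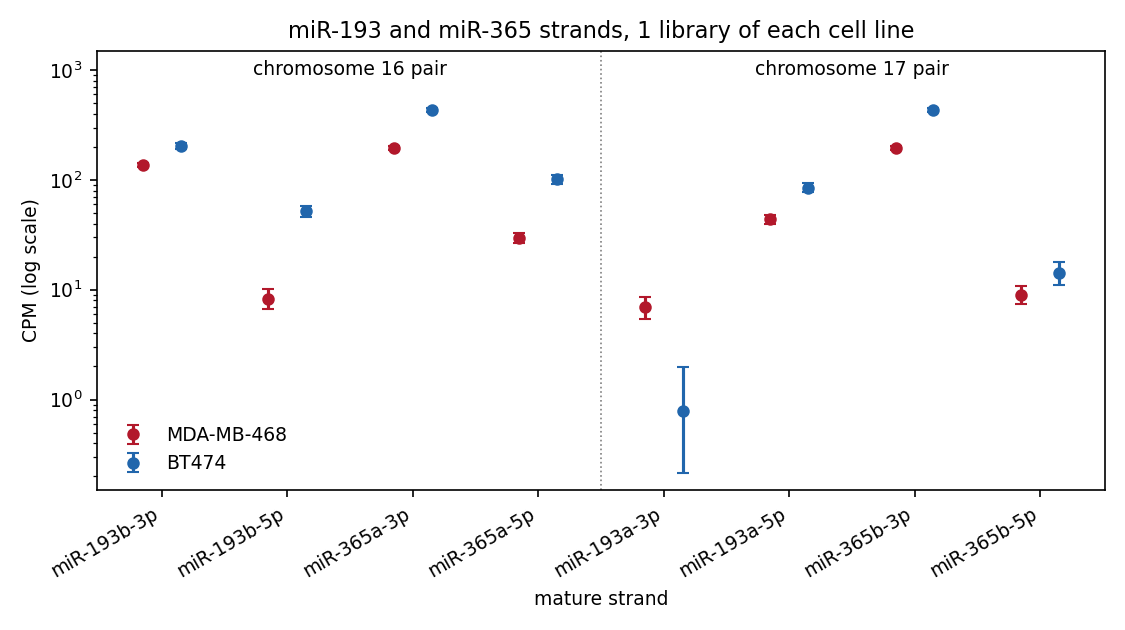
CPM on a log scale of each mature strand in 1 MDA-MB-468 library (red) and 1 BT474 library (blue), with 95% Poisson intervals for counting error. The red point is below the blue one for every strand except miR-193a-3p (6.90 CPM in MDA-MB-468, against 0.779 CPM in BT474); miR-365a-3p and miR-365b-3p show nearly the same tags.

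Arm shares do not depend on how libraries are scaled. The share of 5p counts was lower in MDA-MB-468 for both miR-193 hairpins, although their main strands are opposite: mir-193a was mostly 5p and mir-193b mostly 3p. For mir-193a it was 86.4% (Clopper-Pearson interval 83.3 to 89.1; 501 of 580 counts) in MDA-MB-468, against 99.1% (97.7 to 99.8; 435 of 439) in BT474. The difference was -12.7 points (Newcombe interval -15.8 to -9.79). For mir-193b it was 5.73% (4.66 to 6.96; 95 of 1659 counts) in MDA-MB-468, against 20.3% (18.1 to 22.6; 265 of 1307) in BT474, a difference of -14.5 points (-17.0 to -12.1). In both hairpins the 3p strand with the seed ACUGGCC thus took a larger part in MDA-MB-468.

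The same comparison for miR-365 needs the hairpins together, because their 3p tags are shared. With these tags counted once, the 5p share was 16.4% (15.0 to 17.8; 441 of 2694 counts) in MDA-MB-468, against 21.1% (19.6 to 22.7; 591 of 2798) in BT474, a difference of -4.75 points (-6.81 to -2.69). With all 3p tags listed under each hairpin, which makes the shares lower bounds, mir-365a had 13.1% 5p in MDA-MB-468, against 19.0% in BT474. mir-365b had 4.37% (3.58 to 5.28) in MDA-MB-468, against 3.20% (2.52 to 4.01) in BT474. These intervals overlap, and the difference of 1.17 points (0.067 to 2.28) lies just above 0. An even split of the 3p tags gave 23.1% in MDA-MB-468, against 31.9% in BT474 for mir-365a, and 8.38% in MDA-MB-468, against 6.20% in BT474 for mir-365b. The 3p strand was the larger one for both hairpins under either count.

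**Figure D2:**
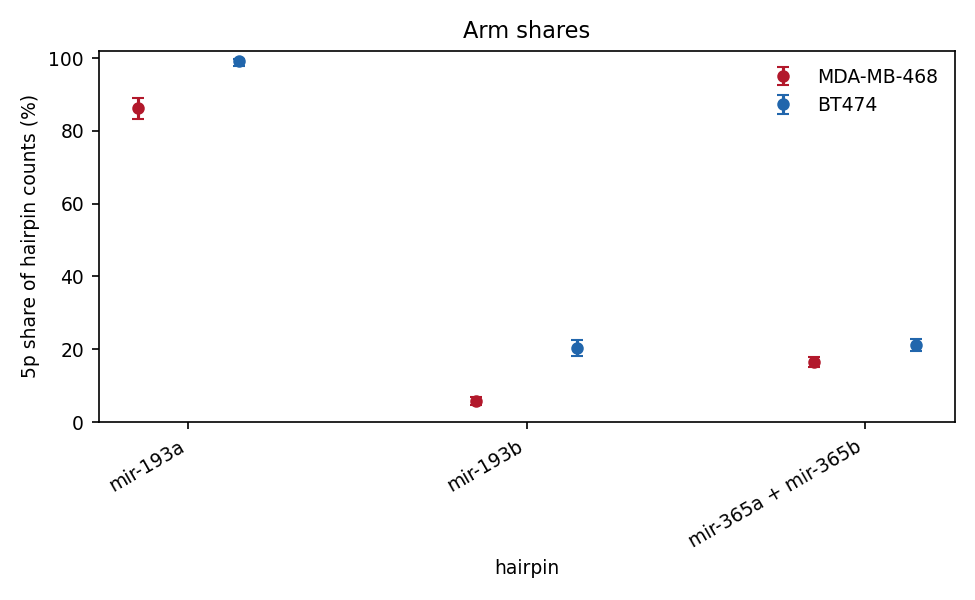
Share of 5p counts in percent for mir-193a, for mir-193b and for mir-365a and mir-365b together, in the MDA-MB-468 library (red) and the BT474 library (blue), with 95% Clopper-Pearson intervals. The red point is the lower of each pair, at 86.4%, 5.73% and 16.4% in MDA-MB-468, against 99.1%, 20.3% and 21.1% in BT474.

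The change in mir-193a and mir-193b was set beside that of hairpins with both arms and at least 100 counts in each library. Hairpins with a mature name listed on several precursors were left out. mir-365a and mir-365b stayed in, since their shared 3p tags are listed under different names. Of these 125 hairpins, 63 had a lower and 47 a higher 5p share in MDA-MB-468, and the median absolute change was 0.701 points. A fall of at least 10 points was seen in 7 of the 125, or 5.6%, mir-193a and mir-193b among them, and a rise of at least 10 points in 6.4%. The cut of 10 points was not planned, and the interval of mir-193a (-15.8 to -9.79) includes falls smaller than the cut. mir-193b ranked 9th and mir-193a 12th by absolute change. No rank is given for mir-365a and mir-365b, since their differences depend on how the shared 3p tags are divided (-5.95 points as listed and -8.87 points with an even split for mir-365a, and 1.17 and 2.17 points for mir-365b). The opposite main strands of mir-193a and mir-193b were compared with other paralogs, a comparison chosen after their values were seen. Among 18 pairs of these hairpins that share a number and differ in the letter, 5 had opposite main strands in both libraries. The other 4 were mir-30e against mir-30a, mir-30b and mir-30d, and mir-374a against mir-374b. The 18 pairs came from 11 family numbers and some share a hairpin, so they are not separate cases. mir-365a and mir-365b entered as 1 pair, with the shared 3p tags listed under each.

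**Figure D3:**
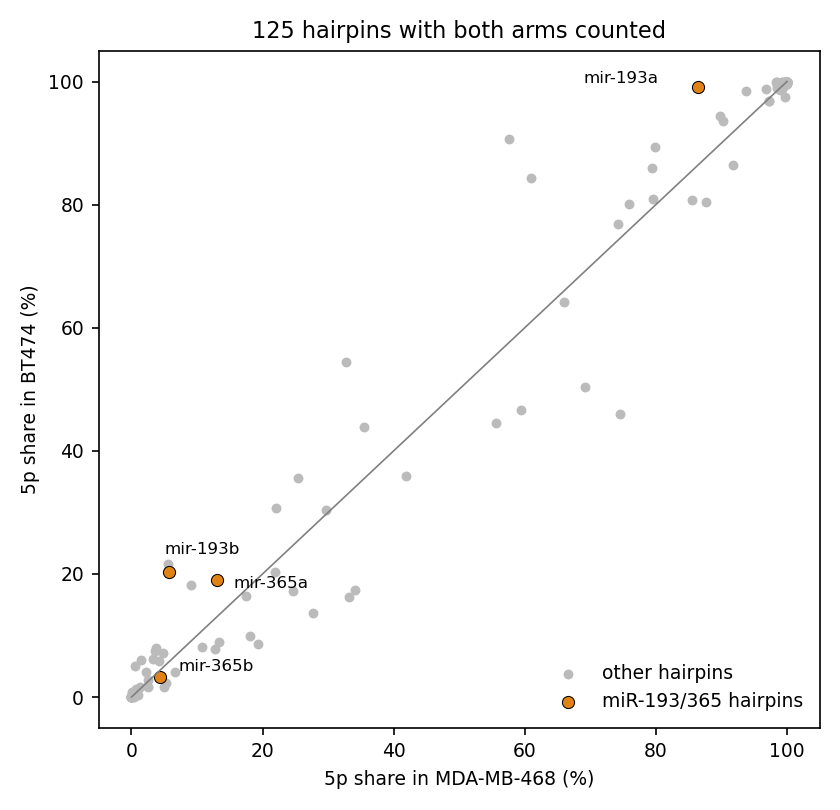
Share of 5p counts in MDA-MB-468 (x axis, percent) against BT474 (y axis, percent) for 125 hairpins with at least 100 counts in each library; orange points are the miR-193 and miR-365 hairpins and the line marks equal shares. mir-193a and mir-193b lie above the line, at differences of -12.7 and -14.5 points (MDA-MB-468 minus BT474), and mir-365b lies close to it.

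The balance between the chromosomes was then measured within each library from strands whose sequence differs between paralogs. The chromosome 16 hairpins gave a smaller share in MDA-MB-468 for each of the 3 strand pairs. Among miR-193 5p counts, miR-193b-5p took 15.9% (13.1 to 19.1; 95 of 596) in MDA-MB-468, against 37.9% (34.3 to 41.6; 265 of 700) in BT474. The conditional odds ratio was 0.312 (0.236 to 0.410). Among miR-365 5p counts, miR-365a-5p took 76.6% (72.4 to 80.5; 338 of 441) in MDA-MB-468, against 87.6% (84.7 to 90.2; 518 of 591) in BT474, an odds ratio of 0.463 (0.328 to 0.651). Among miR-193 3p counts, miR-193b-3p took 95.2% (94.0 to 96.2; 1564 of 1643) in MDA-MB-468, against 99.6% (99.0 to 99.9; 1042 of 1046) in BT474, an odds ratio of 0.0760 (0.0202 to 0.203). The miR-193 5p and 3p pairs share their hairpins, so they are not separate evidence. Which chromosome led depended on the strand: miR-193a led among miR-193 5p counts in both libraries, and the chromosome 16 hairpins led in the other pairs.

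**Figure D4:**
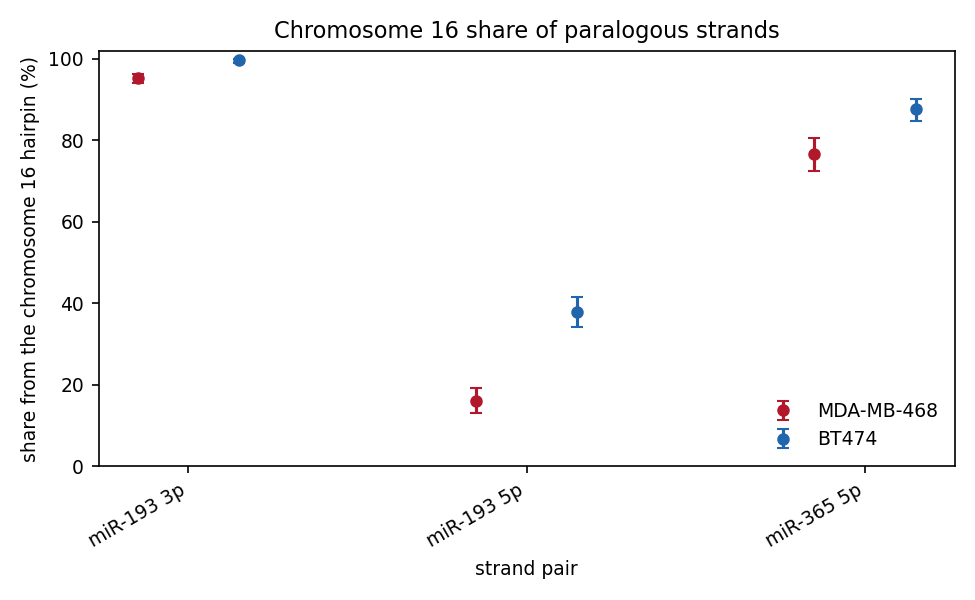
Share of counts from the chromosome 16 hairpin, in percent, among miR-193 3p, miR-193 5p and miR-365 5p counts, in the MDA-MB-468 library (red) and the BT474 library (blue), with 95% Clopper-Pearson intervals. The red point is the lower in each pair, at differences of -4.43, -21.9 and -11.00 points.

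The cluster mates on chromosome 16 did not keep 1 ratio to each other. There, miR-365a-5p had 3.56 times the counts of miR-193b-5p in MDA-MB-468, against 1.95 times in BT474 (odds ratio 1.82, 1.38 to 2.42). For the 3p strands the change ran the other way, with 1.44 counts of miR-365-3p per count of miR-193b-3p in MDA-MB-468, against 2.12 in BT474 (odds ratio 0.680, 0.615 to 0.750), although some miR-365-3p tags may come from chromosome 17. On chromosome 17, miR-365b-5p had 0.206 times the counts of miR-193a-5p in MDA-MB-468, against 0.168 times in BT474 (odds ratio 1.22), and the interval of 0.874 to 1.72 includes 1.

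Hairpins listed under the chromosome bands 17q11.2 and 16p13 were set beside the members, without their distances to the member hairpins. These small counts stand beside 28.6% lower and 35.4% higher among all 690 miRNAs, and nothing is read from them. In band 17q11.2, 3 mature miRNAs of the list reached 10 counts, none was 2-fold higher in MDA-MB-468 and 1 was lower, with a median log2 ratio of -0.48. They were miR-423-3p (2950 CPM in MDA-MB-468, against 4102 in BT474, with a log2 ratio of -0.48), miR-423-5p (827 CPM in MDA-MB-468, against 1048 in BT474, -0.34) and the red blood cell miRNA miR-451a (2.01 CPM in MDA-MB-468, against 5.84 in BT474, -1.54). mir-4725, which lies between mir-193a and mir-365b, was in the list but had no listed count in either library. In band 16p13, 4 reached 10 counts, none was 2-fold higher and 1 was lower, with a median of -0.11. miR-484 had 765 CPM in MDA-MB-468, against 711 in BT474 (log2 ratio 0.11), and miR-3177-3p had 2.88 CPM in MDA-MB-468, against 20.1 in BT474 (-2.80). The other 2 were miR-6511b-3p (0.43), which has several near-identical hairpins, and miR-940 (-0.33).

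miRNAs described as repressing ESR1 did not move as 1 group. Of the 8 in the list 6 reached 10 counts, of which 4 were at least 2-fold higher in MDA-MB-468, 1 was lower and miR-193b-3p lay between; over all 690 miRNAs 35.4% were higher and 28.6% lower. The median log2 ratio was 2.21, against 0.30 for all 690, but it is the mean of miR-18a-5p and miR-18b-5p, and the value of miR-18b-5p (1.72) is a lower bound, set from a blank in BT474. miR-18b-5p also entered the count through MDA-MB-468 alone. miR-18a-5p had 52.2 CPM in MDA-MB-468, against 7.99 CPM in BT474 (log2 ratio 2.71). miR-18b-5p had 22 counts in MDA-MB-468, against a blank in BT474, or at least 3.29-fold higher when a floor of 3 counts per library stands for the blank. miR-222-3p (4.94) and miR-221-3p (4.88) had the highest ratios of the list, and miR-22-3p (288 CPM in MDA-MB-468, against 695 in BT474, -1.27) the lowest.

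The mature miRNAs nearest to each 3p strand in level over both libraries were named by their distance on the log2 CPM scale, among 412 with at least 10 counts in each. With only 2 libraries, likeness means a similar pair of levels and no more. The nearest to miR-365-3p was miR-1180-3p at a distance of 0.071 (188 CPM in MDA-MB-468, against 440 in BT474), followed by miR-9-5p (0.12) and miR-140-3p (0.36). For miR-193b-3p they were miR-200b-5p (0.21), miR-652-3p (0.28) and miR-328-3p (0.29). For miR-193a-3p they were miR-184 (1.47), miR-4728-3p (1.55) and miR-212-3p (1.59). These larger distances follow in part from the minimum of 10 counts, which is 1.95 CPM in BT474. miR-193a-3p had 4 counts (0.779 CPM) there, so no miRNA at its BT474 level could enter. Whether it has a close match below the minimum was not tested.

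The epithelial origin of both lines was checked on miRNA markers. The 6 epithelial markers, the miR-200 family and miR-205-5p, summed to 85372 CPM in MDA-MB-468, against 58118 CPM in BT474, but 2 were at least 2-fold higher in MDA-MB-468, 2 lower and 2 between. miR-205-5p had 14367 CPM in MDA-MB-468, against 61.6 CPM in BT474, whereas miR-200c-3p was 2.55-fold and miR-141-3p 2.82-fold lower in MDA-MB-468. The 4 stromal markers summed to 371 CPM in MDA-MB-468, against 177 CPM in BT474. Most of this sum was miR-143-3p, at 354 CPM in MDA-MB-468, against 158 CPM in BT474; of the 3 with at least 10 counts 2 were at least 2-fold higher in MDA-MB-468, and miR-199a-3p was lower, at 2.88 CPM in MDA-MB-468, against 12.1 CPM in BT474. miR-214-3p was blank in MDA-MB-468 and listed with 2 counts in BT474. The 6 blood cell markers summed to 40.6 CPM in MDA-MB-468, against 52.8 CPM in BT474, with miR-223-3p at 2 counts in each library. CD24 and CD44, on which cells were sorted, are not miRNAs and could not be checked.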

How the data were processed

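Raw counts and normalized values were deposited as separate tables of the same rows. Per the file headers, a count sums the isoform tags that a mature strand has on its precursor; the smallest listed count was 2 and other cells were blank. The deposited normalized values are scores rounded to whole numbers, whose columns sum to 988744 (MDA-MB-468) and 985422 (BT474); their scaling is not described. The submitters' processing notes name Novoalign 2.07.11; build, annotation release and counter are not given in these sources. The column MAD-MB-468 was taken for the line MDA-MB-468.

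The 384 predicted candidates were left out of the totals. Of the 1737 annotated rows, a mature name on several precursors entered once with its largest count, and miR-199a-3p and miR-199b-3p, with equal counts, entered once, leaving 1623 mature miRNAs. A blank was set at 3 counts in a ratio (0.262 CPM in MDA-MB-468, against 0.584 CPM in BT474). With 1 library per group there is no test: ratios have exact conditional binomial intervals, CPM exact Poisson and shares exact Clopper-Pearson intervals, all at 95% and for counting error only, since the protocols name no molecular identifiers and PCR copies are not separate molecules. The 2-fold rule uses the ratio alone. The intervals of ratios, shares and share differences were tested on counts simulated with counting error alone. That test does not speak to PCR copies or to spread between libraries. The intervals of CPM and of odds ratios were not tested. The named miRNAs are all member strands, those of the fixed lists, and the 3 nearest in level to each 3p strand; the members and lists were chosen with earlier results of these data known. Sequences and positions are from RefSeq (GRCh38.p14; all 8 strands matched by name) and host transcripts from GENCODE 29. Python 3.11.15, pandas 2.3.3, scipy 1.17.1, R 4.3.3, edgeR 4.0.16 and DESeq2 1.42.0 were used, the last pair for scaling factors only.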

Additional observations from a re-analysis of the deposited data

How the results depend on the processing

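The 8 member strands kept the sign of their log2 ratio under all 10 alternatives of scaling, total, depth and table, 2 of which (factors over miRNAs with at least 10 counts) were chosen after seeing the data. The alternatives of scaling and total move every log2 ratio by 1 amount, the largest in size being -0.27. The smallest member ratio in size was -0.57 (miR-193b-3p), so no sign could change under them. Scaling moved all log2 ratios by 0.16 (DESeq2 size factors), -0.12 (the same with at least 10 counts), -0.21 (total without the 10 most abundant miRNAs) and -0.27 (upper quartile). In that order miR-193b-3p was at -0.41, -0.69, -0.78 and -0.85, and miR-365a-3p at -0.97, -1.25, -1.34 and -1.40. miR-193a-3p ranged from 2.58 (authors' normalized values, the blank set at 1) to 3.30. The counts of miRNAs at least 2-fold apart stayed within 1.5 times of 244 higher and 197 lower in MDA-MB-468 except without a count minimum (433 lower) and with at least 50 counts (146 higher and 103 lower), settings that change how many miRNAs enter (1130 and 416). The arm shares of the 4 hairpins and the 3 chromosome 16 shares moved by less than their intervals with the authors' values and with thinned counts. An even split of the 3p tags changed the mir-365a difference to -8.87 points, and pooling gave -4.75 points where mir-365b alone had 1.17. The normalized table lists a difference of 0 between the 3p rows in MDA-MB-468. No paired analysis was possible because each cell line had 1 library. Depth limits miR-193a-3p most, with 4 counts in BT474.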
